A study of Mus musculus with 3 samples.

Results

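The genes described here encode the oxidative phosphorylation machinery of mitochondria, measured in mesangial cells sorted from adult mouse kidney. They are the 91 genes, of 18685 named genes on the array, whose symbols begin with Nduf, Uqcr, Atp5 or Cox followed by a digit from 4 to 8, together with the 4 succinate dehydrogenase genes Sdha, Sdhb, Sdhc and Sdhd, the cytochrome c gene Cycs and the cytochrome c1 gene Cyc1. Membership was decided by gene symbol, and the symbol rule itself was set with earlier results of these data known. The set holds 34 subunits of complex I, 7 of its assembly factors, 4 subunits of complex II, 9 of complex III, cytochrome c, 19 genes of complex IV and 17 of complex V. The RefSeq table lists 98 protein-coding genes whose symbols fit, and those without a probe set of their own symbol alone, such as Cox7c and Ndufb4, are not counted among the 91.

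Oxidative phosphorylation passes electrons from NADH and succinate through complexes I to IV of the inner mitochondrial membrane to oxygen, pumps protons at complexes I, III and IV, and lets the protons return through complex V, the ATP synthase. Most subunits are encoded in the nucleus, and a small set of core subunits is encoded by mitochondrial DNA. Several subunits of complex IV come in alternative forms made from separate genes, some of them typical of heart and skeletal muscle, testis, lung or pericytes. Mesangial cells are contractile cells related to pericytes, and they lie beside the mitochondria-rich epithelium of the kidney tubules.

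All samples came from adult male CD-1 mice that carry the transgene Tg(Meis1-EGFP)FO156Gsat, in which Meis1 regulatory sequence on a bacterial artificial chromosome drives green fluorescent protein. Glomeruli were sieved from digested cortex, dissociated and sorted by fluorescence, so the sort marks cells with active Meis1 sequence and covers mesangium inside and outside the glomerulus, per the labels. There were 3 samples of 1 kidney each, called 1, 2 and 3, in 1 group, with no control population or treatment. Whether each kidney came from its own mouse is not stated in the labels, and the spread between samples may be partly technical.

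All values are deposited log2 signals, and a mean is given with its SD over n = 3 samples. The background level was taken from 1269 probe sets of gene families that are mostly silent outside sensory organs and hair, the keratin-associated proteins and the receptors for odours, pheromones and trace amines. Each array's threshold was the 95th percentile of these probe sets, and a gene counted as above it only if it did so in each of the 3 samples. The threshold was 7.48, 7.46 and 7.40 in samples 1, 2 and 3, and 59 of the 1253 genes of these families passed it. These genes are left out of the 18685 named genes. A stricter call added 1 log2 unit to each threshold. Because probe sets bind their targets unequally, a value is set against the threshold or against the same gene in another sample, and values of different genes imply no order of amount. With no control group no test between conditions was possible, and the number of arrays limits the precision. All 7 mesangial markers examined (Itga8, Pdgfrb, Gata3, Agtr1a, Des, Ptn and Ebf1) were above the raised threshold. Of 12 proximal tubule markers 3 were above the threshold and 0 above the raised one. Those above were Slc22a12, Slc34a1 and Hnf4a. Kap, at 8.44, 8.51 and 7.17, was above the threshold in samples 1 and 2 only, and above the raised one in sample 2. Some markers of other cells were above background too. Over all named genes 58.0% were above the threshold and 32.7% above the raised one. The marker lists are small, and their counts were not tested against these shares. Of the loop and distal tubule markers 5 of 6 were above the threshold and 0 above the raised one, and Umod was at 9.51, 9.18 and 8.22. All 5 endothelial markers were above the threshold and 2, Ehd3 (10.42 ± 0.24) and Emcn (10.38 ± 0.19), above the raised one. Of the podocyte markers 3 of 4 were above the threshold and 1, Wt1 (10.15 ± 0.08), above the raised one, and of the macrophage markers 1 of 5 and 0 of 5.

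Nearly all oxidative phosphorylation genes were above background in the sorted cells. Of the 91 genes 87 (95.6%) were above the threshold, beside 58.0% of all named genes. At the raised threshold the count was 82 (90.1%), beside 32.7% of all named genes. The median over the 91 genes was 10.25, 10.23 and 10.42 in samples 1, 2 and 3, and over all named genes it was 7.80 in each sample. The 4 genes not above the threshold were the complex IV isoform genes Cox7a1, Cox7b2 and Cox8b and the assembly factor gene Ndufaf6. With assembly factors and alternative isoforms set aside, all 75 remaining subunit genes were above the threshold and 74 were above the raised one. Sdhd was the exception.

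**Figure D1:**
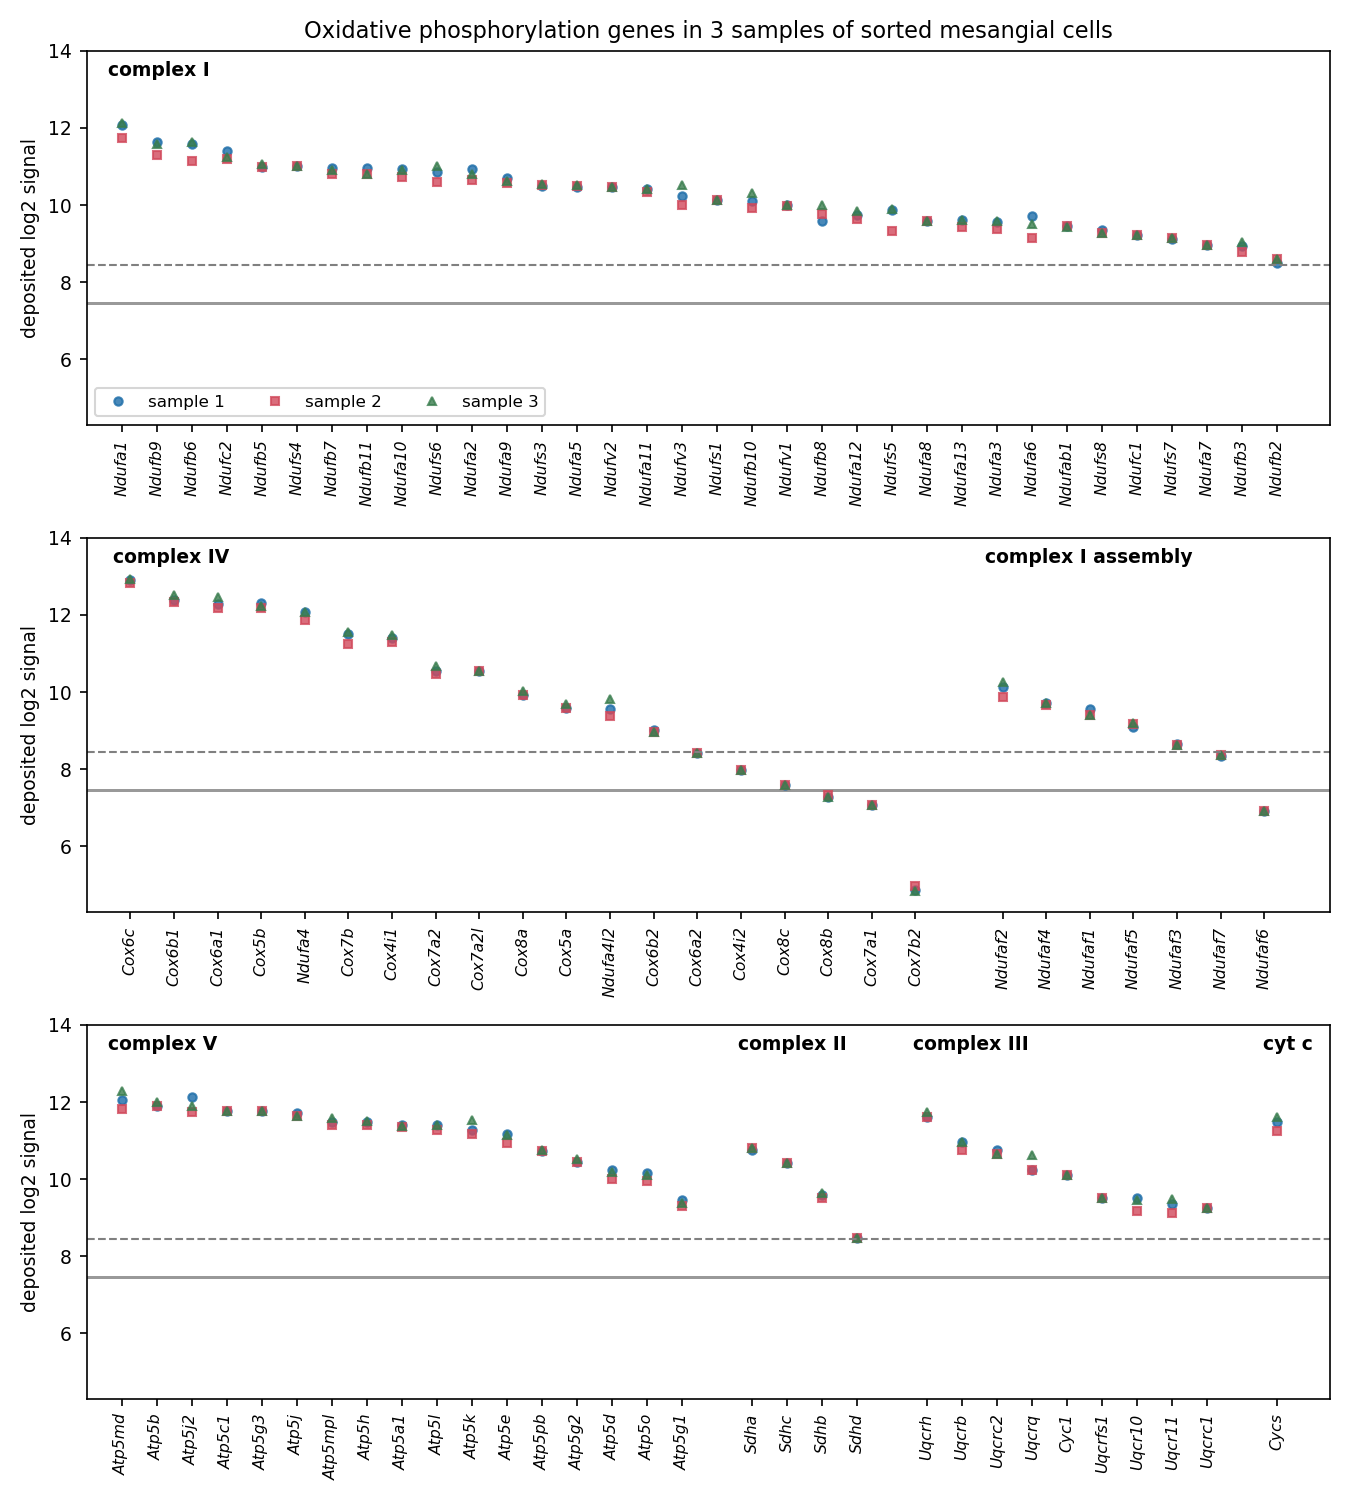
Deposited log2 signal (y axis) of the 91 oxidative phosphorylation genes (x axis) in samples 1 (circles), 2 (squares) and 3 (triangles), grouped by complex and ordered by mean within a group. The grey band spans the thresholds of the 3 arrays (7.40 to 7.48) and the dashed line lies 1 above their mean. Only Ndufaf6, Cox8b, Cox7a1 and Cox7b2 lie below the band in every sample.

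**Figure D2:**
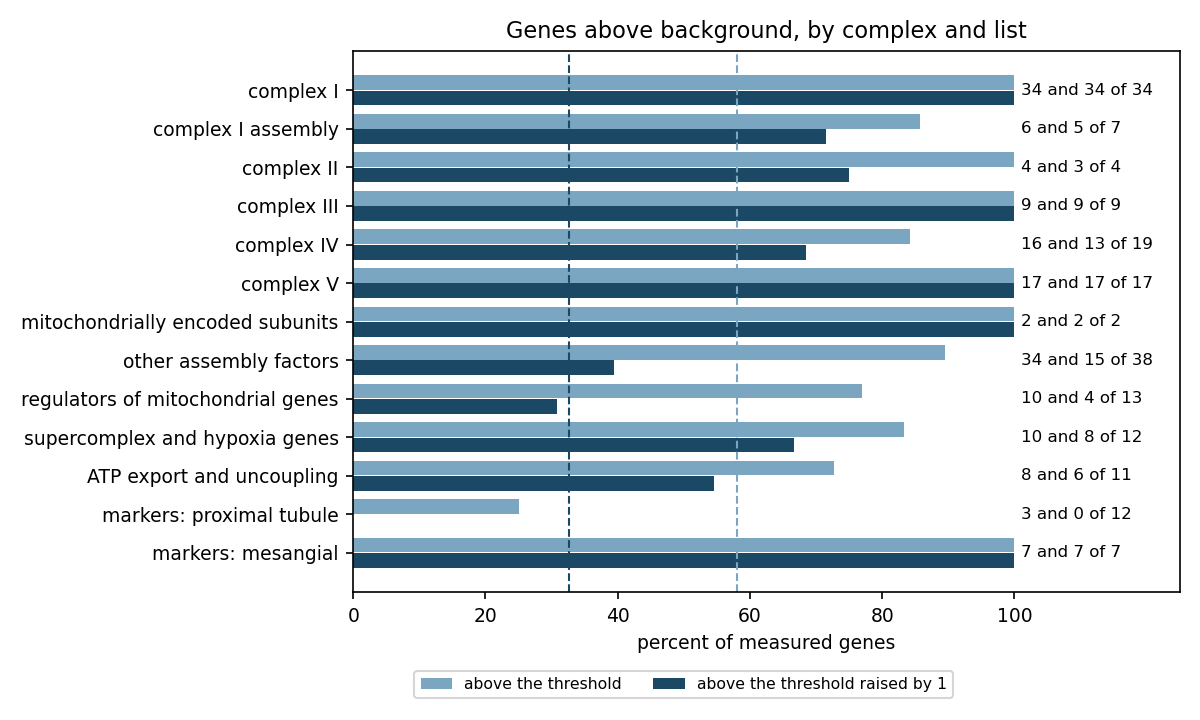
Percent of measured genes (x axis) above the threshold (light bars) and above the threshold raised by 1 (dark bars) for each complex, for other gene lists of the pathway and for markers of 2 cell types, with the counts at the right. Dashed lines mark the shares of all named genes, 58.0% and 32.7%. Complexes I, III and V reach 100% at both thresholds, and no proximal tubule marker passes the raised threshold in every sample.

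Complex I oxidises NADH and hands its electrons to ubiquinone. All 34 measured subunit genes were above the raised threshold, with means from 8.56 to 11.98. The electrons enter at the flavin-bearing subunit Ndufv1, at 10.00, 9.98 and 10.00 in samples 1, 2 and 3. Its iron-sulfur partner Ndufv2 was at 10.47 in every sample. Ndufs1, the largest iron-sulfur subunit, was at 10.12 in every sample. Ndufs7 and Ndufs8, which carry the last iron-sulfur clusters before ubiquinone, had means of 9.15 ± 0.02 and 9.30 ± 0.03, and Ndufs3 had 10.52 ± 0.03. The highest SD among the 6 measured core genes was 0.03. Of these genes 2 had the same value on all arrays, 3 had 2 values and 1 had 3 values, so ties limit what this SD says.

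The 28 accessory subunit genes, whose products surround and stabilise the core, varied more, with a median SD of 0.11 beside 0.01 for the core genes. This difference was not tested, and ties bear on it, since 19 of the 28 accessory genes had 3 values. Ndufa1, a small membrane subunit, was at 12.07, 11.74 and 12.13. Ndufb9 was at 11.63, 11.30 and 11.59. For both genes the value in sample 2 was the lowest. The lowest mean of the complex belonged to Ndufb2, with 8.50, 8.59 and 8.59, just above the raised threshold in each sample.

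The largest spreads among all members above the threshold belonged to 4 accessory subunits of complex I and to 1 membrane subunit of the ATP synthase. Ndufs5 was at 9.86, 9.33 and 9.89 (SD 0.32), and Ndufa6, which binds the acyl carrier protein, at 9.72, 9.15 and 9.51 (SD 0.29). Ndufb6 was at 11.59, 11.15 and 11.64 (SD 0.27), and Ndufv3 at 10.22, 10.00 and 10.52 (SD 0.26). The ATP synthase gene Atp5md was at 12.05, 11.83 and 12.29 (SD 0.23). Sample 2 was the lowest in each of these 5 genes.

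Assembly factors build complex I and are not part of the finished enzyme. Of the 7 measured, 6 were above the threshold and 5 above the raised one. Ndufaf2 was at 10.13, 9.87 and 10.25, while Ndufaf4 had a mean of 9.71 ± 0.04 and Ndufaf1 one of 9.46 ± 0.09. Ndufaf6 was at 6.91 in every sample, below the threshold.

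Complex II, succinate dehydrogenase, joins the citrate cycle to the respiratory chain, and all its subunits are nuclear. All 4 genes were above the threshold and 3 above the raised one. The flavoprotein gene Sdha was at 10.76, 10.82 and 10.82, and the iron-sulfur subunit gene Sdhb at 9.58, 9.51 and 9.64. Of the membrane anchors, Sdhc had a mean of 10.42 and Sdhd 8.48 in every sample. Sdhd lay above the raised threshold of samples 2 and 3 and, by a narrow margin, below that of sample 1 (7.48 raised by 1).

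Complex III carries electrons from ubiquinol to cytochrome c, and all 9 measured genes were above the raised threshold. The catalytic subunit genes Cyc1, for cytochrome c1, and Uqcrfs1, for the Rieske iron-sulfur protein, were at 10.10 and 9.50 in every sample at 2 decimals. The hinge protein gene Uqcrh was at 11.61, 11.61 and 11.75 and Uqcrb at 10.96, 10.75 and 10.96. Of the core proteins, Uqcrc2 had a mean of 10.68 ± 0.06 and Uqcrc1, with the lowest mean of the complex, 9.25 in every sample. Cycs, for the mobile carrier cytochrome c, was at 11.48, 11.25 and 11.61, with sample 2 lowest. The value of Cycs depended on the probe set, as given below.

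Complex IV, cytochrome c oxidase, reduces oxygen. The 10 generally expressed nuclear subunit genes measured were all above the raised threshold, with means from 9.62 to 12.88. They include Ndufa4, which was first assigned to complex I. Cox6c was at 12.90, 12.82 and 12.94, Cox6b1 at 12.39, 12.35 and 12.52, and Cox6a1 at 12.29, 12.19 and 12.46. Sample 2 was lowest and sample 3 highest in all 3 genes.

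Of the 9 alternative forms of complex IV subunits 6 (66.7%) were above the threshold and 3 (33.3%) above the raised one. These shares are near the 58.0% and 32.7% of all named genes. The most direct contrasts are those between a general form and its paralog, each set against the threshold. The general subunit IV gene Cox4i1 was at 11.39, 11.29 and 11.47, above the raised threshold in each sample. Cox4i2, the form known from lung and from pericytes of other organs, was at 7.97, 7.98 and 7.98, above the threshold by less than 1 in each sample. The other pericyte-associated form, Ndufa4l2, a paralog of Ndufa4 known to be induced by hypoxia, was at 9.55, 9.37 and 9.82 and passed the raised threshold in each sample. Ndufa4 itself was at 12.07, 11.88 and 12.09. Both genes of this pair had their lowest value in sample 2 and their highest in sample 3.

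The forms typical of striated muscle were near or below the threshold. Cox6a2 was at 8.42 in every sample, above the threshold and short of the raised one in samples 1 and 2. Cox7a1 was at 7.06 in every sample and Cox8b at 7.29, 7.33 and 7.29, both below the threshold. The general forms Cox7a2 and Cox8a had means of 10.57 ± 0.10 and 9.95 ± 0.07. Striated muscle markers, measured beside them, gave 3 of 6 above the threshold and 1, the troponin gene Tnnt2, above the raised one (9.80, 9.04 and 9.80). These shares are no higher than the 58.0% and 32.7% of all named genes. Their part in the Cox6a2 value was not tested.

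Among the forms known from testis, Cox6b2 was at 9.01, 8.96 and 8.96 and passed the raised threshold in each sample. Cox8c was at 7.59 in every sample, within 1 of the threshold, and Cox7b2 at 4.88, 4.98 and 4.85, the lowest values of the whole set. The spermatid markers Prm1, Prm2, Tnp2 and Akap4 gave 1 of 4 above the threshold and 0 above the raised one, also no higher than all named genes. The general form Cox7b was at 11.50, 11.24 and 11.56. Cox7a2l, whose product joins complexes III and IV into supercomplexes, was at 10.55 in every sample.

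**Figure D3:**
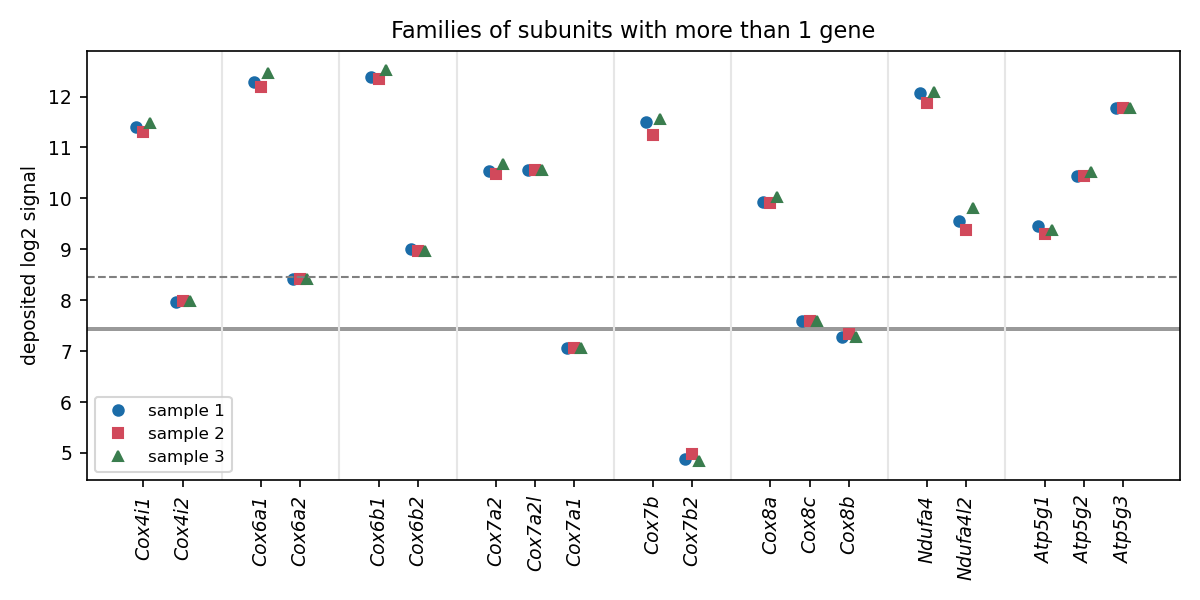
Deposited log2 signal (y axis) of subunits encoded by more than 1 gene (x axis), in samples 1 (circles), 2 (squares) and 3 (triangles). The grey band spans the 3 thresholds and the dashed line lies 1 above their mean. Cox4i2, Cox6a2 and Cox8c lie between the lines, Cox7a1, Cox8b and Cox7b2 below the band, and Ndufa4l2 and Cox6b2 above the dashed line.

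Complex V makes ATP with the proton gradient, and all 17 measured genes were above the raised threshold, with means from 9.38 to 12.06. The catalytic beta subunit gene Atp5b was at 11.91, 11.91 and 11.99, and the alpha subunit gene Atp5a1 at 11.41, 11.35 and 11.37. In the central stalk, the gamma subunit gene Atp5c1 was at 11.78 in every sample, and the delta and epsilon genes Atp5d and Atp5e had means of 10.14 ± 0.13 and 11.09 ± 0.14, each with sample 2 lowest. The membrane subunit gene Atp5j2 was at 12.13, 11.74 and 11.89. The inhibitor of the enzyme, Atpif1, whose symbol lies outside the rule, was at 12.08, 12.08 and 12.10.

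The ring of subunit c, which turns as protons pass, is encoded by 3 genes with the same mature protein. All 3 were above the raised threshold. Atp5g1 was at 9.47, 9.30 and 9.37, Atp5g2 at 10.44, 10.44 and 10.51, and Atp5g3 at 11.77 in every sample.

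Many of the genes shared a difference between samples. Of the 91 genes 50 (54.9%) had their lowest value in sample 2, beside 10.6% of all named genes and 21.0% of named genes above the raised threshold. Ties on all arrays were more common in both comparison sets, and among genes without identical values on the 3 arrays sample 2 was the lowest for 64.1% of the respiratory genes, 21.6% of all named genes and 29.8% of those above the raised threshold. The highest value was in sample 3 for 40 genes (44.0%), beside 12.0% of all named genes and 21.9% of those above the raised threshold. Sample 2 was the highest for 2 genes, Cox7b2 and Cox8b, both below the threshold, and sample 3 the lowest for 2, Ndufab1 and Cox7b2. The median deviation of the 91 genes from their own means was 0.01, -0.05 and 0.02 in samples 1, 2 and 3. The median over all named genes above the raised threshold was 0.00 in each sample. Of those genes 29.6% had 3 identical values and so no deviation, beside 14.3% of the 91, which holds their median near 0.00. Where a gap of at least 0.1 to both other samples was asked, 29 of the 91 genes were lowest in sample 2, beside 4.45% of all named genes. The share over named genes above the raised threshold was not computed for this gap. With array medians subtracted, which breaks ties by construction, 82 of the 91 genes were lowest in sample 2, beside 76.8% of all named genes. Sample 2 had the highest array median, so this step placed every gene with 3 identical values lowest in sample 2. These shares therefore cannot show whether the contrast with other genes depended on the deposited scale. With 3 samples in 1 group no test of this pattern was possible, and in bulk RNA fewer cells of a type and less RNA per cell cannot be told apart.

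**Figure D4:**
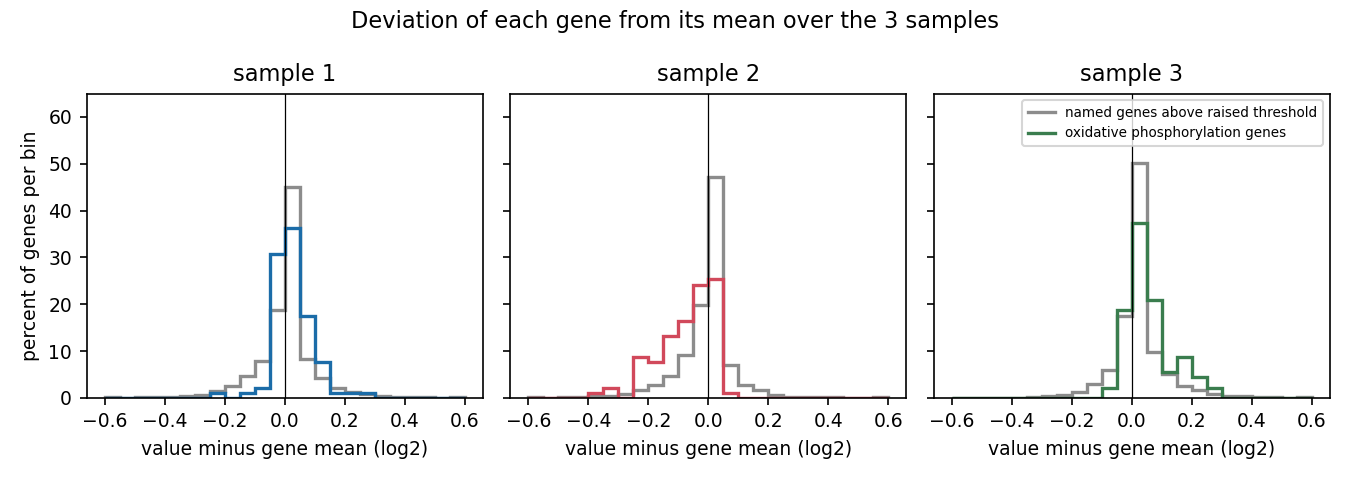
Distribution of each gene's deviation from its mean over the 3 samples (x axis, log2, in bins of 0.05; genes with 3 identical values fall in the bin that starts at 0), as percent of genes (y axis), for the 91 oxidative phosphorylation genes (coloured) and the 6119 named genes above the raised threshold (grey). In sample 2 the coloured line lies to the left of the grey line, with a median deviation of -0.05.

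The share of genes lowest in sample 2 varied between complexes. In complex I sample 2 was the lowest for 19 of 28 accessory genes and for 1 of 6 core genes. It was the lowest for 11 of 17 genes of complex V, 10 of 19 of complex IV, 5 of 9 of complex III, 2 of 7 assembly factors and 1 of 4 genes of complex II. Ties bear on these counts, since a gene with 3 identical values has no lowest sample. Among genes without identical values the counts were 19 of 27 accessory and 1 of 4 core genes of complex I. They were 11 of 15 in complex V, 10 of 15 in complex IV and 5 of 7 in complex III. For assembly factors the count was 2 of 6, and for complex II 1 of 3. The share over all named genes without identical values was 21.6%. These differences between groups were not tested, and several groups are small. The 2 measured subunits encoded by mitochondrial DNA had another order. The complex IV core subunit COX2 was at 13.06, 13.10 and 13.09 and the complex I subunit ND3 at 12.20, 12.47 and 12.49, both lowest in sample 1. The other 11 mitochondrially encoded subunits are not analysed here.

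Other gene sets were set beside this pattern. Of 55 cytosolic ribosomal protein genes, a set chosen after the values were seen, 35 (63.6%) had their lowest value in sample 2 and 28 their highest in sample 3. Of 77 mitochondrial ribosomal protein genes, chosen likewise, 21 (27.3%) were lowest in sample 2. The share lowest in sample 2 was 10.6% over all named genes and 21.0% over those above the raised threshold. The shares highest in sample 3 were 12.0% and 21.9%. Markers of other cells moved between samples as well. The summed linear signal of the 12 proximal tubule markers was 2198, 2121 and 1827 in samples 1, 2 and 3 and lowest in sample 3, and that of the 6 loop and distal tubule markers was 1712, 1862 and 1562, highest in sample 2. Other sums were lowest in sample 2, like many respiratory genes. Among them were the sums of the 5 endothelial markers (3326, 2919 and 3668), the 6 striated muscle markers (1772, 1408 and 1776) and the 4 podocyte markers (1883, 1756 and 1783). Few genes set these sums. Of the proximal tubule markers Kap (8.44, 8.51 and 7.17) and Miox (7.40, 6.15 and 6.13) had the largest SDs, 0.75 and 0.73. Of the endothelial markers Ehd3 and Emcn were lowest in sample 2, Cdh5 and Pecam1 in sample 1, and Kdr was the same throughout. Of the striated muscle markers only Tnnt2 differed between samples. Of the podocyte markers Synpo was lowest in sample 2 and Wt1 in sample 3. The sums of the 5 macrophage markers (640, 634 and 633) and the 4 spermatid markers (629, 618 and 618) were highest in sample 1. The sum of the 7 mesangial markers was 35454, 35126 and 35795, also lowest in sample 2 and highest in sample 3. Of the mesangial markers Ptn and Des were lowest in sample 2, Itga8, Agtr1a and Gata3 in sample 1, and Pdgfrb in sample 3. Ebf1 was lowest, with equal values, in samples 1 and 3. The part of these cells, or of RNA quality, in the difference between samples was not tested.

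Many values were the same on different arrays, which bears on every SD above. Of the 91 genes 13 (14.3%) were listed with a single value throughout, 28 had 2 values and 50 had 3. The share with a single value was 51.1% over all named genes and 29.6% over those above the raised threshold. An SD of 0.00 therefore does not mean that the measurement had no error. The median range over the 3 samples was 0.12 for the 91 genes and 0.07 for all named genes above the raised threshold, and 3 of the 91 genes, Ndufs5, Ndufa6 and Ndufv3, ranged over more than 0.5.

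Small respiratory genes have many near-identical copies in the mouse genome, and 19 of the 117 RefSeq symbols that fit the rule are pseudogenes, so probes can share signal. Of the 91 genes 73 had 1 probe set and 18 had several, and for these the values are those of the probe set with the highest mean. In 6 genes the probe sets differed by more than 1 in their means. The probe sets of Cycs had means of 11.45 and 7.34 at the extremes, and the lowest was not above the threshold in sample 2. Cycs was the 1 gene whose probe sets differed in their call. For Ndufb11 the means were 10.86 and 8.79, for Atp5h 11.47 and 9.74 at the extremes, for Atp5md 12.06 and 10.74, for Cox7b 11.43 and 10.27, and for Ndufc1 9.22 and 8.17. In 10 of the 18 genes every probe set had its lowest value in sample 2, among them the 6 probe sets of Atp5l. A further 6 probe sets named several genes, at least 1 of which fits the rule, and all 6 were above the raised threshold. Of these, 3 named Cox7c with Gm12338 (means 12.72 to 12.83), 2 named Ndufb4 with Ndufb4b (9.93 and 10.32) and 1 named Ndufs5 with its pseudogene Ndufs5-ps (10.44).

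Genes that serve the machinery under other names were described the same way. Over 5 further lists, 64 of 76 measured genes were above the threshold and 35 above the raised one, beside 58.0% and 32.7% of all named genes. With the 99th percentile as threshold the first count was 40, beside 35.3% of all named genes. Of 38 assembly factors with other names 34 were above the threshold and 15 above the raised one, the latter a share near that of all named genes, and at the 99th percentile the first count was 19. The copper chaperone gene Cox17 was at 11.07, 10.95 and 11.41 and the complex IV assembly gene Coa5 at 10.19, 10.19 and 10.20, whereas Lyrm7, which serves the Rieske protein, was at 6.04, 6.04 and 6.17. Of 11 genes for ATP export and uncoupling 8 were above the threshold. The outer membrane channel gene Vdac2 was at 11.84, 11.67 and 11.79 and the ADP/ATP carrier gene Slc25a4 at 11.71, 11.64 and 11.83. The testis form of the carrier, Slc25a31, was at 5.50, 5.63 and 5.54.

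Of 13 measured regulators of mitochondrial genes 10 were above the threshold and 4 above the raised one, the latter a share near the 32.7% of all named genes. With the 99th percentile as threshold the first count was 4, beside 35.3% of all named genes. Gabpa, an ETS-family activator of respiratory genes, was at 10.60 and Yy1 at 9.77 in every sample. The coactivator gene Ppargc1a was at 7.95, 8.28 and 8.34 and Nrf1, for nuclear respiratory factor 1, at 8.28, 8.54 and 8.54, both above the threshold in each sample. Ppargc1a was below the raised threshold throughout, and Nrf1 was below it in sample 1. The fatty acid receptor gene Ppara was at 7.01 in every sample, below the threshold. Of 12 supercomplex and hypoxia genes 10 were above the threshold and 8 above the raised one. Epas1, for the hypoxia-inducible factor subunit HIF-2 alpha, was at 12.79, 12.80 and 12.80 and the complex IV interacting gene Higd2a at 10.78, 10.53 and 11.19. The kinase gene Pdk1, which restrains entry of pyruvate into the citrate cycle, was at 7.08, 7.10 and 6.94, below the threshold. Higd1b, a pericyte-associated relative of Higd1a chosen after its values were seen, was at 8.54, 8.29 and 8.77.

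Since many of these genes are classic targets of nuclear respiratory factor 1, their promoters were searched for its core motif. The RefSeq table of GRCm38.p6 gave promoter windows, from 250 bases before to 50 bases after a start site, for 74 of the 91 genes (79 windows). The 17 genes without an entry were Atp5a1, Atp5mpl, Cox4i1, Cox4i2, Cox6a2, Cox6c, Cox8c, Cyc1, Ndufa2, Ndufa4l2, Ndufaf6, Ndufb9, Ndufs1, Sdhc, Uqcrb, Uqcrc2 and Uqcrq. The NRF1 core GCGCNTGCG, on either strand, stood in 27 of the 79 windows (34.2%), beside 6.31% of all 32851 windows and 15.1% of the 6330 windows of named genes above the raised threshold. By complex, 9 of 15 genes of complex V had it, 8 of 31 of complex I, 3 of 5 of complex III, 2 of 3 of complex II, 1 of 13 of complex IV, 2 of 6 assembly factors, and Cycs.

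The stretches that follow show this core in 1 gene of each group that has a match wholly before the start site, the gene with the highest mean. Each is 90 bases, 5′ to 3′ on the strand of the gene, in RefSeq GRCm38.p6, with the core and any overlapping match on the other strand in capitals.
Ndufs6, accessory subunit of complex I, chr13:73328483-73328572, minus strand: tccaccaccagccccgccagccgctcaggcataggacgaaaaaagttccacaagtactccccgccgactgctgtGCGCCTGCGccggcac
Ndufaf4, assembly factor, chr4:24897929-24898018, plus strand: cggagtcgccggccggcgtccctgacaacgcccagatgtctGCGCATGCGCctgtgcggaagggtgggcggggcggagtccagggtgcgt
Sdha, complex II, chr13:74350289-74350378, minus strand: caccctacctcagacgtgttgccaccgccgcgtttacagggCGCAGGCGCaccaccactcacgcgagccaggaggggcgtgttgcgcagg
Cycs, cytochrome c, chr6:50566582-50566671, minus strand: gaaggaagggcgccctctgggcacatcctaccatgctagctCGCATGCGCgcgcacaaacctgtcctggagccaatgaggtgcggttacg
Cox6a1, complex IV, chr5:115349072-115349161, minus strand: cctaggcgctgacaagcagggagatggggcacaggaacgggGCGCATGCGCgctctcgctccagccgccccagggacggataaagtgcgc
Atp5md, complex V, chr19:47090796-47090885, minus strand: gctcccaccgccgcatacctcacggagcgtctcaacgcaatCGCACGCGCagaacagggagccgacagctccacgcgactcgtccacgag

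In Ndufaf4 and Cox6a1 the matches of both strands overlap in a palindrome. Counted from the start site, the first match began at -16 in Ndufs6, -61 in Cycs and -97 in Sdha. A match describes letters in the window and is not a measured binding site.

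A search for 3 other motifs followed. The ETS core CCGGAAG, the letters bound by factors such as the product of Gabpa, stood in 18 of 79 windows (22.8%), beside 8.86% of all windows and 18.9% of windows of genes above the raised threshold. Both cores occurred in 7 windows (8.86%), beside 1.18% of all windows, and the genes were Atp5h, Atp5k, Atp5l, Atp5md, Cox6a1, Sdhd and Uqcr11. The share of both in windows of genes above the raised threshold was not computed. The YY1 core AAGATGGCG stood in 7 windows (8.86%), beside 1.40% and 3.63%, and 6 of the 7 matches lay from 25 to 50 bases after the start site. Before the start site alone the share was 1.27%, beside 0.606% of all windows. These letters contain ATG. The hypoxia core ACGTG stood in 20 windows (25.3%), beside 19.6% and 25.8%. The windows of Cox7a1, Cox7b2 and Cox8b, whose genes were not above the threshold, held neither the NRF1 nor the ETS core. The same held for 34 genes above the threshold.

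**Figure D5:**
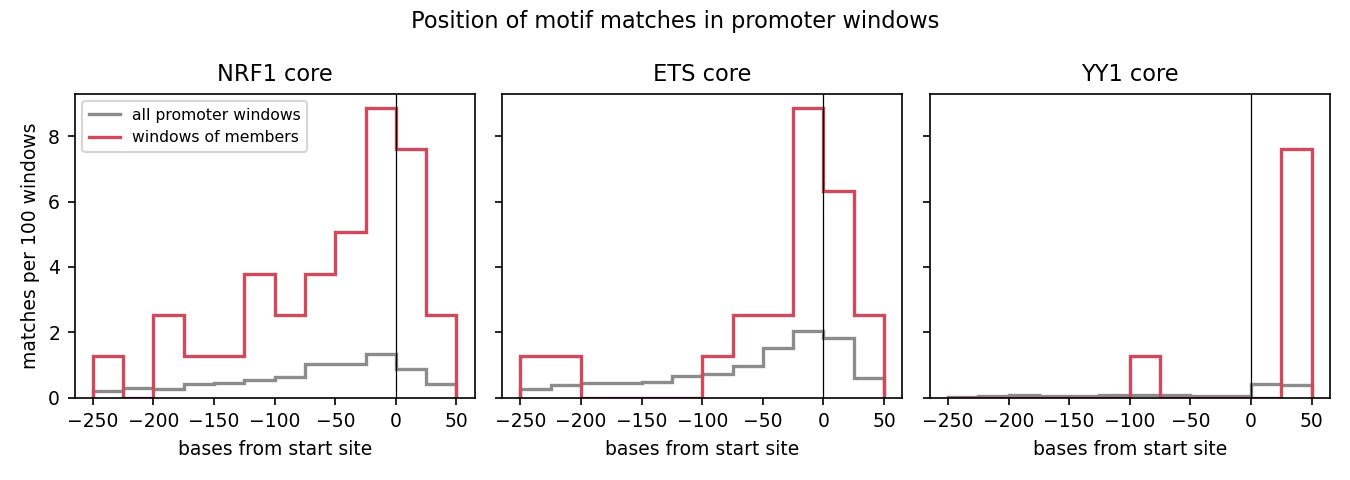
Matches per 100 promoter windows (y axis) of the NRF1, ETS and YY1 cores by distance from the start site (x axis, bases, bins of 25), for the 79 windows of oxidative phosphorylation genes (red) and all 32851 windows (grey), overlapping matches counted as 1. NRF1 and ETS matches are densest near the start site, and 6 of the 7 YY1 matches lie from 25 to 50 bases after it.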

How the data were processed

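Sorted-cell RNA (3 samples) went through 1 round of WT-Ovation Pico amplification and biotin labelling before hybridisation, each sample on its own Affymetrix array, per the labels' protocols. The authors deposited log2 signals per probe set. The submitters' processing notes name Expression Console. Its version, background correction and summary are not given in the sources. That the base is 2 was read from the range of values, which reach 14.39. Array medians were 7.53, 7.56 and 7.54, and values were used as deposited.

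Of 35557 probe sets, 23410 were in the platform annotation and 21789 had exactly 1 symbol. Symbols were updated by Entrez number with RefSeq GRCm38.p6 (21698 matched). Per gene the probe set with the highest mean was used. Motif matches were counted per window on both strands. The caller and the motif search were tested on simulated data (Python 3.11.15, pandas 2.3.3, numpy 2.4.6).

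Named were all paralogous, core and below-threshold members, per complex the 3 highest and the lowest means, the 5 largest SDs, and per other list the 2 highest and the lowest means. Others were chosen after their values were seen. Members, lists and thresholds were chosen with earlier results of these data known. Alternatives are in the closing section.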

Additional observations from a re-analysis of the deposited data

How the results depend on the processing

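The count of the 91 genes above the threshold was lowest, 84, with the 99th percentile (35.3% of all named genes). It was highest, 88, with the 90th percentile (68.8%). The other alternatives over the 91 genes were 1 sample left out, olfactory receptors alone, means over arrays and other probe set choices. It was 90 of 94 with added probe sets of several symbols, and 75 of 75 with isoforms and assembly factors set aside. A count was said to move when it changed by more than a factor of 1.5, a wide limit for 87 of 91. The results given next moved. With the 99th percentile 40 of 76 pathway genes outside the rule were above the threshold, beside 35.3% of all named genes, among them 19 of 38 other assembly factors and 4 of 13 regulators. With the lowest probe set of each gene, cytochrome c counted 0 of 1. Before the start site alone, the NRF1 core stood in 24.1% of windows of members (5.19% of all windows) and the YY1 core in 1.27% (0.606%). The count of genes lowest in sample 2, examined after the data were seen, was 29 of 91 when a gap of at least 0.1 was asked (4.45% of all named genes). It was 82 when array medians were subtracted, which breaks ties and put 76.8% of all named genes lowest in sample 2. Of 36 levels of genes with several probe sets, 29 moved by more than 1 SD with another probe set choice. A single group of 3 arrays and tied values limit the SDs, and no paired analysis was possible because there is 1 group. Protein identities of paralogs were planned and not run.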
